A study of Mus musculus with 4 samples.

Results

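The measurements are those of 10 mouse glutathione S-transferase genes: *Gsta2*, *Gsta3* and *Gsta4* of the alpha class, *Gstm1*, *Gstm2*, *Gstm4* and *Gstm5* of the mu class, *Gstp1* of the pi class, *Gstt1* of the theta class and the membrane-bound *Mgst1*. They came from a fixed list of symbols, and each probe that the array annotation assigns to one of these symbols was used, which gave 18 of 39429 probes, or 10 of 30175 gene names. 3 of the genes had 1 probe and 7 had several. The probe of *Gsta4* was printed at 10 spots of each array and every other probe at 1.

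Glutathione S-transferases attach glutathione to electrophilic compounds, among them the lipid aldehydes and quinones that arise under oxidative stress, and so prepare them for export. The cytosolic enzymes are dimers grouped into classes by sequence, and the membrane-bound enzymes form a family of their own. Several of the genes are textbook targets of the transcription factor NRF2, which acts through the antioxidant response element, and the alpha class is known for its abundance in liver.

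The cells were NIH-3T3:Per2-Luc, a line of mouse fibroblasts carrying a luciferase under the *Per2* promoter. RNA of 3 cultures given a cOS-pulse (critical oxidative stress, 5 mM H2O2 for 10 min) was taken 4 h, 20 h and 32 h later. The control culture had received fresh medium without H2O2 (0 mM, labelled 4 h) and served every comparison, so that at 20 h and 32 h the pulse and the hours in culture cannot be told apart. Each condition was 1 array of 1 slide, so no test was possible and no p-value is given. A signal is given as the intensity of the scanner software, or on the log2 scale relative to the 75th percentile of its array, and probes are not compared with each other in level, since each binds its target differently. The error after ± is that of the scanner software for the spots of both arrays and leaves out the spread between cultures. A ratio was measured where the software flagged both arrays as well above background. Where it flagged only 1, the bright array was set against the detection limit of the dim one, which gives a lower bound ("at least"), and a change was called at 2-fold. In bulk RNA, fewer cells of a type and less RNA per cell cannot be told apart.

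All 10 fibroblast markers examined, such as *Col1a1* and *Vim*, were well above background on each array, with median log2 ratios over the control of -0.50 at 4 h, -0.48 at 20 h and -0.33 at 32 h. Their summed signal, as a multiple of the 75th percentile of the array, was 679 in the control, 579 at 4 h, 605 at 20 h and 620 at 32 h. The sum of 7 hepatocyte markers was 2.07, 2.74, 2.26 and 2.32 in that order, most of it from *Apoa2*, with 2, 4, 4 and 2 of them well above background and *Apoa1*, *Ttr* and *Fgb* on none. Of 6 epithelial, 5 macrophage and 4 endothelial markers, between 2 and 3 of each list were well above background on each array. The macrophage sum was 21.9, 33.4, 12.2 and 12.7 in the same order, most of it from *Itgam*, while *Emr1* and *Ptprc* of that list were on none. The epithelial sum was 0.703, 1.46, 0.849 and 0.814, and the endothelial sum 3.22, 4.29, 4.22 and 4.13. Median log2 ratios at 4 h were 0.34 for the hepatocyte, 0.60 for the epithelial, 0.57 for the macrophage and 0.71 for the endothelial markers, over 2 or 3 measured genes and at most 1 bound each. 1 marker of each of these lists was 2-fold higher at 4 h, *Cyp3a11* (1.69), *Krt8* (1.17), *Cd68* (2.08) and *Cdh5* (1.87). Of the fibroblast markers, *Pdgfra* (-1.55) and *Pdgfrb* (-1.35) were 2-fold lower at 4 h. At 20 h, *Thy1* (-1.39), *Col1a1* (-1.06) and *Col3a1* (-1.02) were 2-fold lower. The part of these markers in the results at 4 h was not tested.

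At 4 h post cOS-pulse, *Gsta4* and *Gsta2* exceeded the control by 2-fold or more and the other members stayed within 2-fold or had no ratio. These were 2 of 18 member probes, beside 6.77% of all probes. No member was 2-fold lower, beside 4.95% of all probes. At 20 h, 1 probe of *Gstm4* exceeded the control by 2-fold or more (0.763% of all probes) and none was 2-fold lower (1.87%). At 32 h no member probe was 2-fold higher (1.15% of all probes) or lower (1.44%). Between 20 h and 32 h the same probe of *Gstm4* was the only member past 2-fold toward 20 h (0.497% of all probes), and none was toward 32 h (1.07%). The median log2 ratio over the members with a ratio, 1 probe per gene, was 0.14 at 4 h (9 genes), 0.02 at 20 h (8 genes), -0.21 at 32 h (8 genes) and 0.08 for 20 h over 32 h (8 genes), beside 0.22, 0.00, 0.00 and 0.01 over all genes. Of 14 measured member probes, 5 differed from the control beyond the spot error at 4 h, 8 at 20 h and 10 at 32 h, beside 75.8%, 43.1% and 43.8% of all measured probes.

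The scaling between arrays bears on every small value at 4 h, because the median over all genes was 0.22 with the 75th percentile and lay between -0.18 and 0.10 under 5 other scalings. Relative to that median, the members lay at -0.08, and between -0.09 and -0.04 under the 5 others. The sign of the 4 h ratio was kept under all 5 by 3 of 14 measured member probes, those of *Gsta4* and *Gstm5* and 1 of *Gstt1*, and turned under at least 1 for the other 11. At 20 h it was kept by 10 of 14, and at 32 h by 11 of 14.

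**Figure D1:**
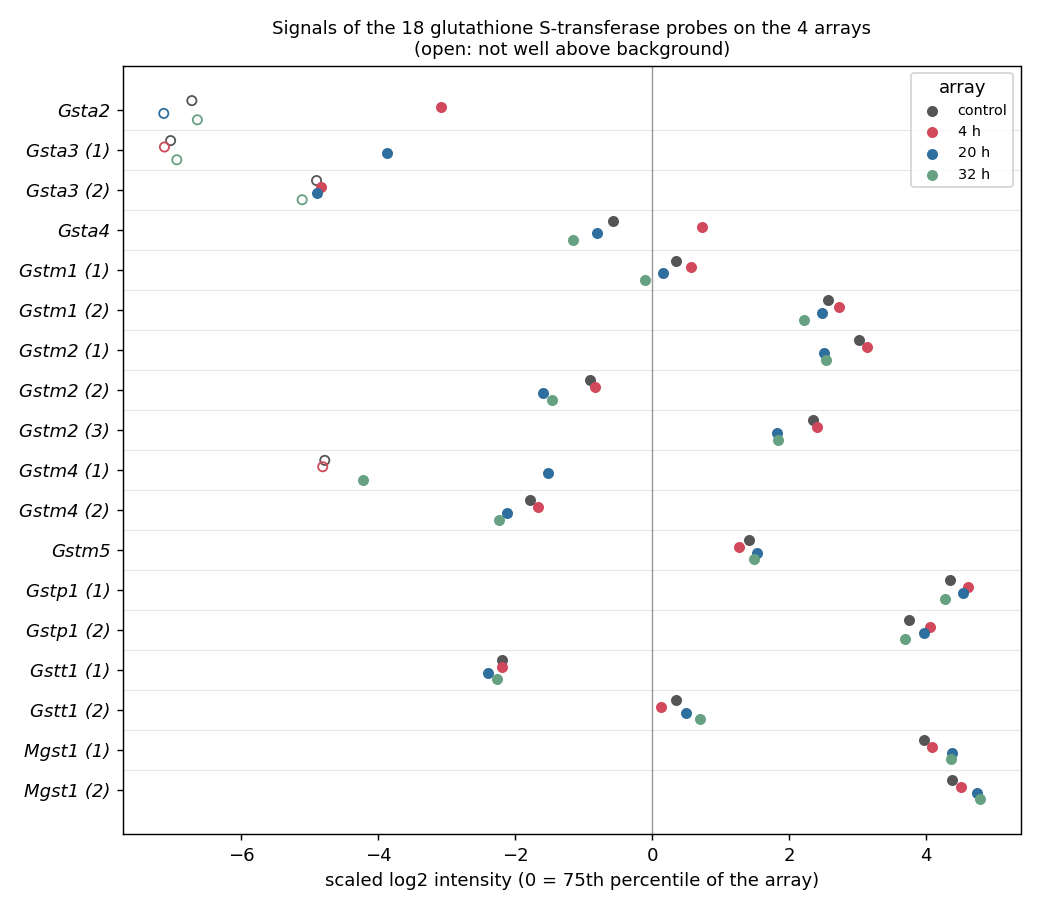
Signal of each of the 18 member probes (rows) on the 4 arrays (colours), as log2 intensity relative to the 75th percentile of the array; open circles were not well above background, and numbers in brackets count the probes of a gene. *Gsta4* stood apart at 4 h (0.72 against -0.58 in the control), the first probe of *Gstm4* at 20 h (-1.52), and the probe of *Gsta2* was filled at 4 h only.

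*Gsta4* encodes the alpha-class enzyme known for its activity toward 4-hydroxynonenal, an aldehyde of lipid peroxidation. Its probe matched chromosome 9, 78046172 to 78047344 (mm9), a stretch of 1173 bases for a probe of 60, so that it joins separate blocks of the genome. The sequence is printed because among the 10 members it gave the one measured ratio past 2-fold at 4 h, and it holds a reading frame without a stop codon.
Gsta4 probe: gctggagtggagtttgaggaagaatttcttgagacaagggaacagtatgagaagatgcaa

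The 10 spots had a mean intensity of 742 ± 41 (SD) in the control, 1500 ± 53.6 at 4 h, 799 ± 20.6 at 20 h and 561 ± 20.1 at 32 h. The spots at 4 h were all above those of the other arrays, the lowest at 1434 and the highest of the control at 812. At 32 h they were all below the control, whose lowest was 654, while the spots at 20 h and in the control overlapped before scaling. These spots repeat the measurement of the same RNA and are not separate cultures.

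After scaling, *Gsta4* was 2.46-fold higher at 4 h than in the control, a log2 ratio of 1.30 ± 0.21, with single spot positions between 1.18 and 1.53. Of 20392 probes measured in this comparison, 874 had a higher ratio. Under the 5 other scalings the ratio lay between 0.89 and 1.30 and fell short of 2-fold when arrays were scaled by their median (0.94) or by the spike-in controls (0.89). The log2 ratio over the control was -0.22 ± 0.21 at 20 h, and 0.11 without scaling, the 1 scaling at which its sign turned. At 32 h it was -0.58 ± 0.21, a level 1.5-fold below the control and negative under all 5 scalings. *Gsta4* thus had its highest level at 4 h and its lowest at 32 h.

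**Figure D2:**
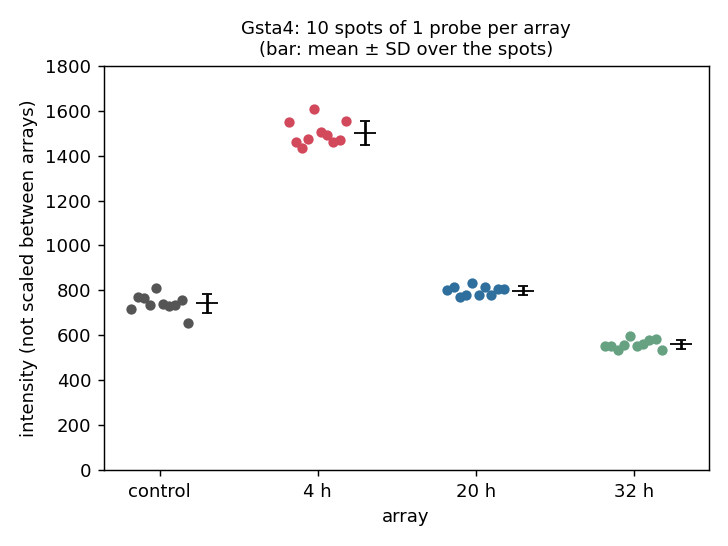
Intensity of the 10 *Gsta4* spots on each array (points, not scaled between arrays) with their mean and SD (bars). The spots at 4 h, around 1500, did not overlap those of the control, around 742, and the spots at 32 h, around 561, lay below both.

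*Gsta2*, another alpha-class enzyme, was well above background on the 4 h array only. Its intensity was 10.5 in the control, 106.9 at 4 h, 9.98 at 20 h and 12.6 at 32 h, where the values other than that at 4 h are surrogates set by the software near the background. The 4 h array thus stood alone, at least 3.18-fold above the control, and no ratio could be taken at 20 h or 32 h. The log2 bound of 1.67 lay between 1.26 and 1.54 under the 5 other scalings, and at 0.88, short of 2-fold, with normexp background correction.

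The *Gsta2* probe (chromosome 9, 78178856 to 78178915, minus strand, mm9) was compared with all other probes of the array for shared runs of 14 bases or more. Whole transcripts were not compared, so a short run does not show that a probe reads 1 gene only. The *Gsta2* probe shared a run of 30 bases with a probe of *Gm10639*, the longest of any member with a probe of another gene, against at most 15 for the other members. Aligned without gaps, the probes were identical at 53 of 60 bases, and a probe of *Gm3776* was identical at 46 of the 50 bases that overlap. The annotation of the array places the probes of both genes between those of *Gsta4* and *Gsta2* on chromosome 9 (mm9). Both genes were singled out after their values were seen. Bases 13 to 42 are printed to show how close the copies are, with capitals at the positions where at least 1 copy differs from *Gsta2*. Counted from the 5′ end of the *Gsta2* probe, *Gm10639* has T23G, and *Gm3776* has T23G, T40A and A41G.
Gsta2 probe, bases 13 to 42: ggcctctaatTgtttgcaattataaaaTAc
Gm10639 probe, same window: ggcctctaatGgtttgcaattataaaaTAc
Gm3776 probe, same window: ggcctctaatGgtttgcaattataaaaAGc

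The closer of the 2 *Gm10639* probes (chromosome 9, 78153243 to 78153302) had intensities of 35 (control), 283 (4 h), 31.8 (20 h) and 13.4 (32 h), which puts 4 h at least 8.41-fold above the control. The *Gm3776* probe (chromosome 9, 78116894 to 78116953) had 10.8, 168.5, 10.4 and 13.2 in the same order, at least 5.01-fold above the control at 4 h. The 4 h array was the only one with a detected signal for *Gsta2* and these probes of its copies. The second probe of *Gm10639* (78153199 to 78153258), with 21 of 59 overlapping bases identical to *Gsta2*, had 8.23, 29.7, 8.20 and 9.68 and was well above background on no array. With probes this close, transcripts of *Gsta2* and of its copies cannot be told apart.

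*Gsta3*, the alpha-class enzyme through which mice conjugate aflatoxin epoxide, had 2 probes near the background on chromosome 1. They lay at 21255189 to 21255248 and 21255043 to 21255102 (mm9), and the first 30 bases of each are printed because the probes of one transcript differed.
Gsta3 probe 1, bases 1 to 30: tgacgaggaacggccggatgctctctagtt
Gsta3 probe 2, bases 1 to 30: attcaggcaactataagtacatagccccca

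Probe 1 had an intensity of 8.49 in the control, 6.56 at 4 h, 95.2 at 20 h and 10.2 at 32 h, and only the value at 20 h was well above background. The 20 h array was at least 1.85-fold above the control and 1.81-fold above 32 h, and these bounds are short of the threshold. On the log2 scale the bound over the control, 0.89, was 1.22 without scaling and 1.09 with the spike-in controls, past 2-fold. Probe 2 had 37.0, 32.1, 46.8 and 36.2, was well above background at 4 h and 20 h, and gave no ratio since its signal there did not exceed the detection limit of the other arrays. Before scaling, both probes had their highest intensity at 20 h. On the scaled log2 axis this held for probe 1 only (-3.87), while probe 2 had -4.90 in the control, -4.83 at 4 h, -4.90 at 20 h and -5.11 at 32 h. Each probe has 1 spot. On the 20 h array the pixel CV was 36% for probe 1 (mean pixel 186.2) and 23.6% for probe 2 (132.1). In the control, near background, that of probe 1 was 33.8% (81.87). With the median pixel in place of the mean, the log2 bound of probe 1 over the control was 0.74. The part of this uneven spot in the result was not tested.

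*Gstm4*, an enzyme of the mu class, gave different results with its 2 probes. Probe 1 (chromosome 3, 107843802 to 107843861, mm9) begins at base 1133 of the listed transcript and probe 2 (107846495 to 107846847, a stretch of 353 bases) at base 326, and both are listed for the same 2 RefSeq transcripts. Probe 2 is printed whole, and of probe 1 the first 30 bases are given.
Gstm4 probe 1, bases 1 to 30: tccccatgcttgtctggagaccagagacgg
Gstm4 probe 2: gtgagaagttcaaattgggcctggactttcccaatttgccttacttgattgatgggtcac

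Probe 1 had a scaled log2 signal of -4.78 in the control and -4.81 at 4 h, neither well above background, and of -1.52 at 20 h and -4.22 at 32 h. The array at 20 h stood above the others, at least 9.45-fold over the control and 6.5-fold over 32 h (log2 ratio 2.70 ± 0.35). At 32 h the probe was at least 1.45-fold above the control. None of the 20248 probes measured for 20 h over 32 h had a higher ratio. Under normexp correction the values were 1.88 and 1.77 on the log2 scale, still past 2-fold.

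Probe 2 had -1.78, -1.67, -2.12 and -2.23 on the arrays in order of time. Its log2 ratio was 0.10 ± 0.21 at 4 h, negative under 4 of 5 other scalings, -0.34 ± 0.22 at 20 h, -0.46 ± 0.22 at 32 h and 0.11 ± 0.22 for 20 h over 32 h. The probes of *Gstm4* thus disagreed at 20 h, with probe 1 high and probe 2 slightly below the control. Each rests on 1 spot per array. On the 20 h array, the spot of probe 1 had a mean pixel of 508.5 and a median pixel of 466 with an SD of 151 over 62 pixels. Its pixel CV was 29.6%, against 31.6% in the control, where the spot was near background (mean pixel 104.9). Member spots of like brightness on the 20 h array were more even. Their CV was 20.3% for probe 2 of *Gstm4* (mean pixel 337.3), 19.3% for probe 2 of *Gstm2* (439.4) and 10.9% for probe 1 of *Gstt1* (379.4). With the median pixel in place of the mean, the log2 ratio of 20 h over 32 h was 2.64. The part of this uneven spot in the result was not tested.

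**Figure D3:**
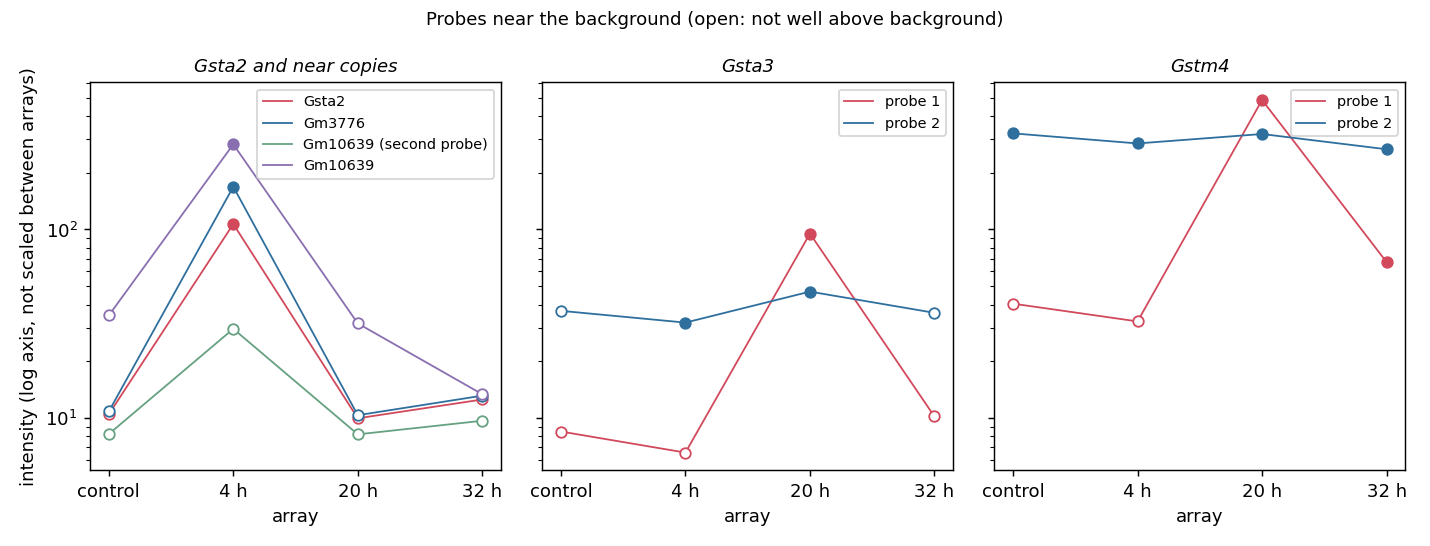
Intensity (log axis, not scaled between arrays) of the probes of *Gsta2* and its near copies, of *Gsta3* and of *Gstm4* on the 4 arrays; open circles were not well above background. The left panel peaks at 4 h with 106.9 for *Gsta2* and 283 for *Gm10639*, and probe 1 of the other panels peaks at 20 h (95.2 for *Gsta3* and 486 for *Gstm4*), where probe 2 of *Gsta3* reads 46.8.

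*Gstm2*, a mu-class enzyme, was below the control at 20 h and 32 h with all 3 probes, by less than 2-fold. The probes lie on chromosome 3 at 107784622 to 107784681, 107784948 to 107785007 and 107784675 to 107784734 (mm9), and the first and the last overlap. Probe 1 had 3.02 in the control, 3.13 at 4 h, 2.51 at 20 h and 2.53 at 32 h on the scaled log2 axis. Probe 2 had -0.91, -0.84, -1.59 and -1.47, and probe 3 had 2.35, 2.40, 1.82 and 1.84. On each probe the late arrays thus lay together, below the control and 4 h.

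The log2 ratios over the control at 20 h were -0.52 ± 0.20, -0.68 ± 0.21 and -0.53 ± 0.20 for the 3 probes of *Gstm2*, the lowest of the members, and -0.50 ± 0.20, -0.56 ± 0.21 and -0.51 ± 0.20 at 32 h. These ratios were negative under all 5 scalings. At 4 h they were 0.10, 0.07 and 0.05, within the spot error and negative under 5, 4 and 5 of the scalings, and for 20 h over 32 h they were -0.02, -0.12 and -0.01.

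*Gstm1*, the neighbour of *Gstm2* on chromosome 3 in RefSeq, had a probe at 107815595 to 107815654 on that chromosome (probe 1) and one that the annotation of the array places on chromosome 5, 117082490 to 117082549 (probe 2, mm9). A copy of mu-class sequence elsewhere in the genome cannot be told apart from *Gstm1* with probe 2. The scaled log2 signal of probe 1 was 0.34 (control), 0.56 (4 h), 0.16 (20 h) and -0.10 (32 h), and that of probe 2 was 2.57, 2.72, 2.48 and 2.21. Both probes thus had their highest value at 4 h and their lowest at 32 h, with differences under 2-fold. Over the control the log2 ratios were -0.44 ± 0.20 and -0.36 ± 0.20 at 32 h, negative under all 5 scalings. They were -0.17 ± 0.20 and -0.08 ± 0.20 at 20 h, within the spot error, and 0.22 ± 0.20 and 0.15 ± 0.20 at 4 h, negative under 3 and 4 of them.

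*Gstm5*, a mu-class gene at the other end of the same cluster (chromosome 3, 107701101 to 107701160, mm9), had 1.41, 1.26, 1.53 and 1.49 on the scaled log2 axis. Its log2 ratios over the control were -0.15 ± 0.20 at 4 h, 0.13 ± 0.20 at 20 h and 0.09 ± 0.20 at 32 h, each within the spot error. No array stood apart for this gene.

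*Gstp1*, the pi-class enzyme, which also binds and restrains the stress kinase JNK, stayed within 2-fold on every array. Its probes lie on chromosome 19 at 4035908 to 4036723 (probe 1, 816 bases for a probe of 60) and 4037306 to 4037365 (probe 2, mm9). Probe 1 had 4.35 (control), 4.61 (4 h), 4.54 (20 h) and 4.28 (32 h) on the scaled log2 axis, and probe 2 had 3.75, 4.05, 3.97 and 3.69. The order of the arrays was the same with both, 4 h and 20 h above the control and 32 h. At 4 h the log2 ratios over the control were 0.26 ± 0.20 and 0.30 ± 0.20, near the median of 0.22 over all genes, and negative under 4 and 2 of the 5 scalings. At 20 h they were 0.19 ± 0.20 and 0.22 ± 0.20, and at 32 h -0.07 ± 0.20 and -0.05 ± 0.20. Probe 2 is also listed for the transcript of *Gstp2*, the neighbouring gene, and the 2 cannot be told apart with it.

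*Gstt1*, the theta-class enzyme known for its action on small halogenated compounds, had probes on chromosome 10 at 75259864 to 75259923 (probe 1, listed for an Ensembl transcript) and 75246560 to 75246619 (probe 2, mm9). Probe 1 had -2.20, -2.19, -2.40 and -2.26 on the scaled log2 axis and probe 2 had 0.35, 0.13, 0.49 and 0.70. Probe 1 stayed within its spot error in each comparison. Probe 2 was lowest at 4 h and highest at 32 h, with log2 ratios over the control of -0.22 ± 0.20 at 4 h and 0.34 ± 0.20 at 32 h, the signs of which held under all 5 scalings.

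*Mgst1*, the membrane-bound transferase, which also reduces lipid hydroperoxides, was above the control at 20 h and 32 h with both probes, by less than 2-fold. The probes lie on chromosome 6 at 138104944 to 138105003 (probe 1) and 138104846 to 138104905 (probe 2, mm9). Probe 1 had 3.96 (control), 4.09 (4 h), 4.38 (20 h) and 4.36 (32 h), and probe 2 had 4.37, 4.51, 4.74 and 4.78. The late arrays thus lay together above the control and 4 h, the reverse of *Gstm2*. The log2 ratios over the control were 0.42 ± 0.20 and 0.37 ± 0.20 at 20 h, and 0.40 ± 0.20 and 0.41 ± 0.20 at 32 h, positive under all 5 scalings. At 4 h they were 0.13 and 0.14, within the spot error, and turned negative under 4 of the scalings.

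For 20 h over 32 h, 7 of 15 measured member probes were beyond their spot error, beside 17.6% of all measured probes, with *Gsta4* at 0.36 ± 0.21, *Gstm1* at 0.26 ± 0.20 and 0.27 ± 0.20, and *Gstp1* at 0.26 ± 0.20 and 0.28 ± 0.20 toward 20 h, beside probe 1 of *Gstm4*. Probe 2 of *Gstt1* was at -0.21 ± 0.20, the lowest of the members and the only one of the 7 toward 32 h. Both probes of *Gstm1* and both of *Gstp1* are among the 7, so the 7 are not separate genes.

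**Figure D4:**
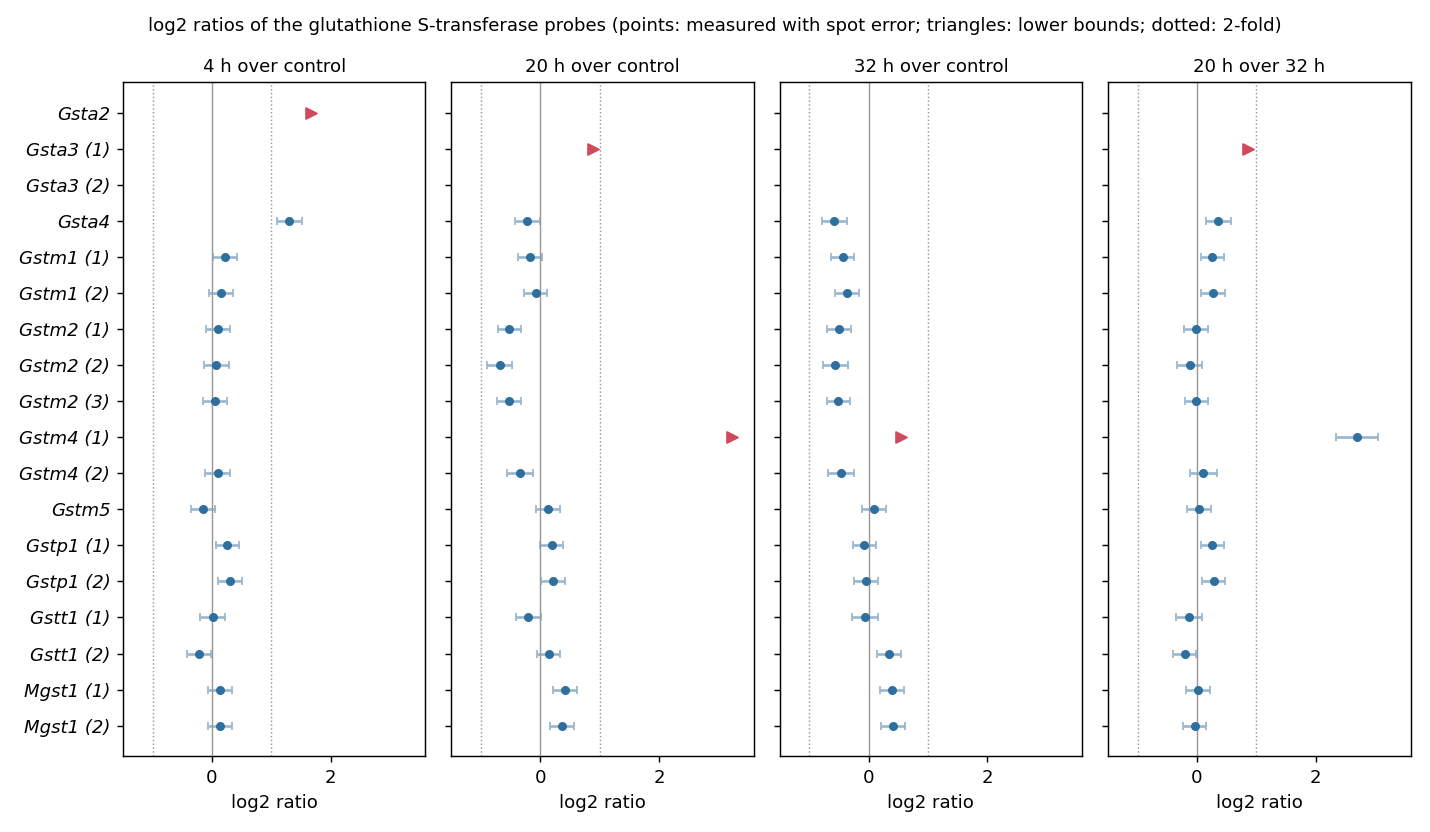
log2 ratio of each member probe (rows) in the 4 comparisons (panels), with the spot error as bars; triangles are lower bounds, dotted lines mark 2-fold, and rows without a symbol had no ratio. *Gsta4* (1.30) and *Gsta2* (at least 1.67) lie past 2-fold at 4 h, and probe 1 of *Gstm4* lies past it at 20 h over the control (at least 3.24) and over 32 h (2.70).

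Among 18 further genes of the superfamily and its relatives on the array, 15 had a ratio at 4 h, with a median log2 ratio of -0.09. *Gstt3*, the neighbour of *Gstt1*, had intensities of 621 (control), 175 (4 h), 1383 (20 h) and 1300 (32 h), 2.91-fold lower at 4 h (log2 ratio -1.54 ± 0.21). 1 probe of *Ptges*, which makes prostaglandin E2 and belongs to the same membrane-bound family as *Mgst1*, was 4.57-fold higher at 4 h (log2 ratio 2.19 ± 0.20), while the brighter of its probes had 0.82 ± 0.20. *Gstcd* was at least 2.19-fold lower at 32 h with 1 of 2 probes. No other gene of this list had a probe past 2-fold.

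Genes that supply glutathione or export its conjugates, and other genes around NRF2, were read by their brightest probe. Both lists were chosen with earlier results of these data known. Over all genes, 18507 had a ratio at 4 h, 2047 of them 2-fold higher and 1531 lower. Of 26 genes of glutathione supply and conjugate export, 23 had a ratio at 4 h, 5 of them 2-fold higher and 1 lower, with a median of -0.01. The highest measured were *Slc3a2*, a partner subunit of the cystine transporter, at 2.57, *Gclc*, the catalytic subunit of the rate-limiting enzyme of glutathione synthesis, at 1.89 and *Chac1*, which degrades glutathione, at 1.83. *Slc7a11*, the other subunit of that transporter, is named after its values were seen: its intensity was 8.16 in the control and 1091 at 4 h, at least 32.4-fold higher. Among the lowest measured were *Acy3*, which deacetylates mercapturic acids, at -1.63 and *Nat8*, which makes mercapturic acids, at -0.92. *Abcc1*, an exporter of glutathione conjugates, was the only gene of this list past 2-fold at 20 h (-1.31) and at 32 h (-1.33). Of 27 partners and targets of NRF2 outside the family, 10 were 2-fold higher at 4 h and none was lower, with a median of 0.86, led by *Hmox1* (3.29), *Sqstm1* (2.14) and *Txnrd1* (1.77). At 20 h none of the 27 was past 2-fold and the median was 0.05, and at 32 h 1 was lower, *Nqo1* (-1.04), with a median of -0.03. Over all genes with a ratio, 248 were 2-fold higher and 605 lower of 16964 at 20 h. At 32 h these were 381 and 469 of 16895.

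**Figure D5:**
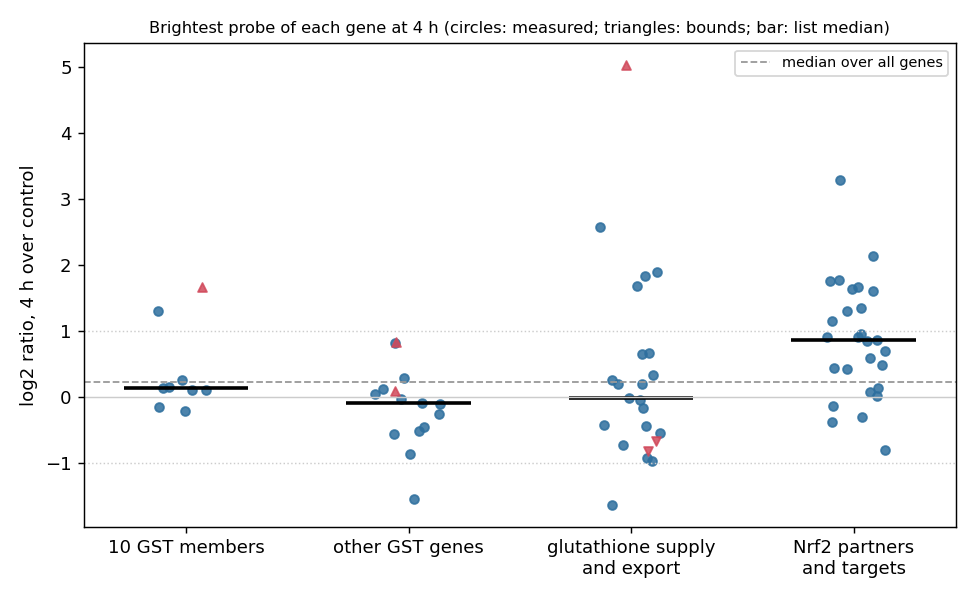
log2 ratio of 4 h over control for the brightest probe of each gene (points measured, triangles bounds), in the 10 members and 3 lists of genes; bars are list medians and the dashed line is the median over all genes (0.22). The median of the members (0.14) lay near that line, and that of the NRF2 partners and targets (0.86) above it. Members and lists were chosen with earlier results of these data known.

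The RefSeq promoter windows (GRCm38.p6, 250 bases before to 50 after a gene start) were searched on both strands for the core of the antioxidant response element, TGACNNNGC, the AP-1 site TGACTCA, the E-box CACGTG and the core of the heat shock element, GAANNTTC. Windows were given for 9 of the 10 members (12 windows), and not for *Gsta4*. The antioxidant core lay in 3 of the 12 windows, against 12.4% of all windows, the AP-1 site in 2 (5.2% of all), the E-box in none (7.15%) and the heat shock core in 1 (7.86%). The window of *Gsta2* held none of the 4 motifs. An AP-1 match began 176 bases before the start of *Gstm5* and the heat shock match 25 bases after a start of *Mgst1*, and neither is printed. The matches to the antioxidant core began 121, 42 and 56 bases before the start of *Gsta3*, *Gstm5* and *Mgst1*, and the AP-1 match of *Gstp1* 74 bases before its start. For the antioxidant matches and the AP-1 match of *Gstp1*, 30 bases on the strand of the gene are shown with the match in capitals. In *Mgst1* and *Gstp1* the match reads on the opposite strand. The coordinates are those of the whole windows, on the plus strand except that of *Gstp1*.
Gsta3, chr1:21240335-21240634: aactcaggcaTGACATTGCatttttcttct
Gstm5, chr3:107895604-107895903: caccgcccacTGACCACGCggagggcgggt
Mgst1, chr6:138140277-138140576: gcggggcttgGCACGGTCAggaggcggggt
Gstp1, chr19:4037863-4038162: ctccaacgtgtTGAGTCAgcatccggggcg

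None of these 4 genes was called at 4 h, and a match describes only the letters of the window.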

How the data were processed

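Total RNA of 4 cultures was labelled with Cy3 and hybridized to one-color Agilent Mouse 4x44K v2 arrays, 1 per condition. The authors deposited the spot intensity of Agilent Feature Extraction 10.7.3.1, which had subtracted a spatial trend and set surrogates for spots near the background, and other spot columns of that software (flags and annotation, mm9). A second deposited table differs from these intensities by 1 divisor per array.

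From the deposited intensity, log2 values of spots without outlier flags were averaged per probe, and the 75th percentile of the 39429 probes was subtracted. A probe was well above background when at least 50% of its spots carried the flag. A bound is the bright signal over the detection limit of the dim array (its lowest flagged signal, or the dim signal where that was higher), and no ratio was given where the bright signal did not exceed it. The detection limit was an intensity of 40.9 in the control and 29.7, 40.4 and 47.3 at 4 h, 20 h and 32 h; with 1 array per condition, the number of arrays limits precision. A gene was represented by its brightest probe over the 4 arrays in medians. SAM, named in the methods, needs replicates and was not run. Every member probe is named. Other superfamily genes are named where a probe passed 2-fold, the 3 highest and 3 lowest measured genes of glutathione supply and export at 4 h, and the 3 highest NRF2 partners and targets. 1 gene that this rule names is not reported here. Members and lists were chosen with earlier results of these data known. The scaling, the ratio and the 2-fold call were tested on simulated arrays, with changes planted in brighter detected probes only. Bounds, the alternatives and the sequence steps were not tested in this way. Alternatives were 5 scalings, normexp (offset 50, limma 3.58.1, R 4.3.3), other detection and outlier rules, the deposited table, thresholds of 1.5-fold and 3-fold and another probe per gene, and the median pixel, which was chosen after seeing the data. Python 3.11.15, numpy 2.4.6 and pandas 2.3.3 were used. Protein sequences were not used here.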

Additional observations from a re-analysis of the deposited data

How the results depend on the processing

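No paired analysis was possible because each condition had 1 array. No measured log2 ratio of a member probe past 2-fold changed its sign under any of the 12 alternatives with a value. Bounds are left out of this, because a bound is given only where the bright signal exceeds the detection limit, which fixes its sign. Of 739 values of single probes, 660 moved by less than the spot error. The detection rules and the deposited table leave a measured ratio the same or nearly so by design. The counts of member probes and the medians that moved were these. The count of 2 probes higher at 4 h was 1 with scaling by the median, with the spike-in controls (8 probes), with normexp, without bounds and at 3-fold. The count of 1 probe higher at 20 h than in the control was 2 with the spike-in controls, without scaling, without a detection filter, with the flag for positive and significant signals and at 1.5-fold, and 0 without bounds, and that of 0 probes lower was 1 at 1.5-fold. The count of 1 probe higher at 20 h than at 32 h was 2 without scaling, without a detection filter, with the flag for positive and significant signals and at 1.5-fold. The added probe in the 20 h counts was probe 1 of *Gsta3*. The median over the member genes at 4 h, 0.14, was -0.22 with the median, -0.26 with the spike-in controls and -0.14 without scaling, and at 20 h, 0.02, it was 0.25 without scaling. Every other count and median was the same or moved by less than 1.5 times or the median spot error of 0.20. Values near the detection limit, those of *Gsta2*, *Gsta3* and probe 1 of *Gstm4*, are bounds or rest on 1 spot.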
